A study of Homo sapiens with 4 samples.

Results

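The transcripts described here encode 10 human enzymes that build amino acids or carry the carbon units released by serine: ASNS, PHGDH, PSAT1, PSPH, SHMT2, MTHFD2, CTH, CBS, PYCR1 and BCAT1. They were taken by name from the platform's probe and gene table, which gave 24 probe sets, 23 of them naming a single enzyme, among 54613 probe sets and 19775 genes in all. RNA was measured on HG-U133 Plus 2.0 arrays, 1 array for each of 4 groups: A375 cells with an siRNA against ZIC5, A375 cells with a negative control siRNA, SK-MEL-28 cells with the ZIC5 siRNA and SK-MEL-28 cells with the control siRNA. A375 and SK-MEL-28 are established human melanoma lines, each with an activating BRAF mutation, and RNA was taken 48 h after transfection in every group. ZIC5 is a zinc-finger transcription factor, and the study asked which transcripts differ in melanoma cells when it is targeted. The labels do not say which or how many ZIC5 siRNA sequences were used, or how many cultures stand behind an array. The 10 were selected on measured values, since their siRNA differences and line differences on these arrays were known when they were chosen, so both are given as descriptions, with no test.

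Non-essential amino acids can be taken up or made in the cell. Serine is made from a glycolytic intermediate in a chain of 3 enzymes, and its breakdown in mitochondria feeds the folate cycle that supplies carbon for nucleotides. Asparagine, proline and cysteine are each made in few steps from aspartate, glutamate or methionine, and branched-chain aminotransferases exchange nitrogen between leucine, isoleucine or valine and glutamate. Many of these genes are known targets of ATF4, a transcription factor whose translation increases when amino acids are short or the endoplasmic reticulum is stressed, and which binds C/EBP-ATF response elements.

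Values are RMA intensities on a linear scale, and a difference is the log2 value of a line's ZIC5 siRNA array minus that of its control siRNA array. Each gene is read from its brightest probe set, by the mean of the 4 arrays, and 13794 genes had a mean log2 intensity of at least 5, an intensity of 32. All 10 enzymes reached that minimum, BCAT1 through its A375 arrays alone. Median intensities over all probe sets lay between 38.4 and 39.4 on the 4 arrays. The ZIC5 probe set read 14.1 with ZIC5 siRNA and 16.8 with control siRNA in A375 cells, and 15.5 with ZIC5 siRNA and 21.4 with control siRNA in SK-MEL-28. That is under the level minimum on every array, so the knockdown cannot be checked on these arrays. Of 11 melanocyte and melanoma markers measured, 11 had a mean log2 intensity of at least 7 over the SK-MEL-28 arrays and 5 did over the A375 arrays, where the pigment genes MLANA, TYR, TYRP1 and GPR143 averaged under 5. No leukocyte or endothelial marker averaged 7 in either line, while the keratin genes KRT10 and KRT18 did in both and KRT14 did in A375. The fibroblast marker LUM had log2 intensities of 3.90 with ZIC5 siRNA and 7.34 with control siRNA in A375 cells, and of 8.96 with ZIC5 siRNA and 9.77 with control siRNA in SK-MEL-28. COL1A1 averaged at least 7 in both. The samples are cultures of established melanoma lines, so these signals are not read as other cell types. The part of these marker genes in the siRNA and line differences was not tested. An array averages a whole culture, so a change in the share of cells with a high level and a change in the level per cell cannot be told apart.

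Of the 10 enzymes, 9 averaged at least the level minimum in each line, and all 9 were higher with ZIC5 siRNA than with control siRNA in both lines. BCAT1 was higher with ZIC5 siRNA in A375 cells, while both SK-MEL-28 readings of it lay under the minimum. In A375, 4 of the 10 were at least 2-fold higher (CTH, ASNS, CBS and PSPH), where 3.89% of the 13794 genes were. In SK-MEL-28, 6 of the 10 were at least 2-fold higher (ASNS, CTH, CBS, MTHFD2, PHGDH and PSPH), where 0.776% of genes were. ASNS, CTH, CBS and PSPH passed 2-fold in both lines, as did 0.312% of all genes, and 31.5% of all genes were higher in both lines at any size. The median difference of the enzymes was 0.87 in A375 cells and 1.08 in SK-MEL-28, beside medians of -0.01 in A375 cells and 0 in SK-MEL-28 over all genes. BCAT1 is kept among the 10 and in the SK-MEL-28 median, although its readings there lay under the minimum. These siRNA differences belong to the values known when the enzymes were chosen, so nothing is read from the counts. Among all genes the SD of the differences was 0.60 in A375 cells and 0.39 in SK-MEL-28. Probe sets of the same gene differed from each other with a median SD of 0.25 in A375 cells and 0.15 in SK-MEL-28, over 6635 genes with several probe sets at the level minimum. No group had a second array, so this spread between probe sets of 1 array stands in for no biological error.

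**Figure D1:**
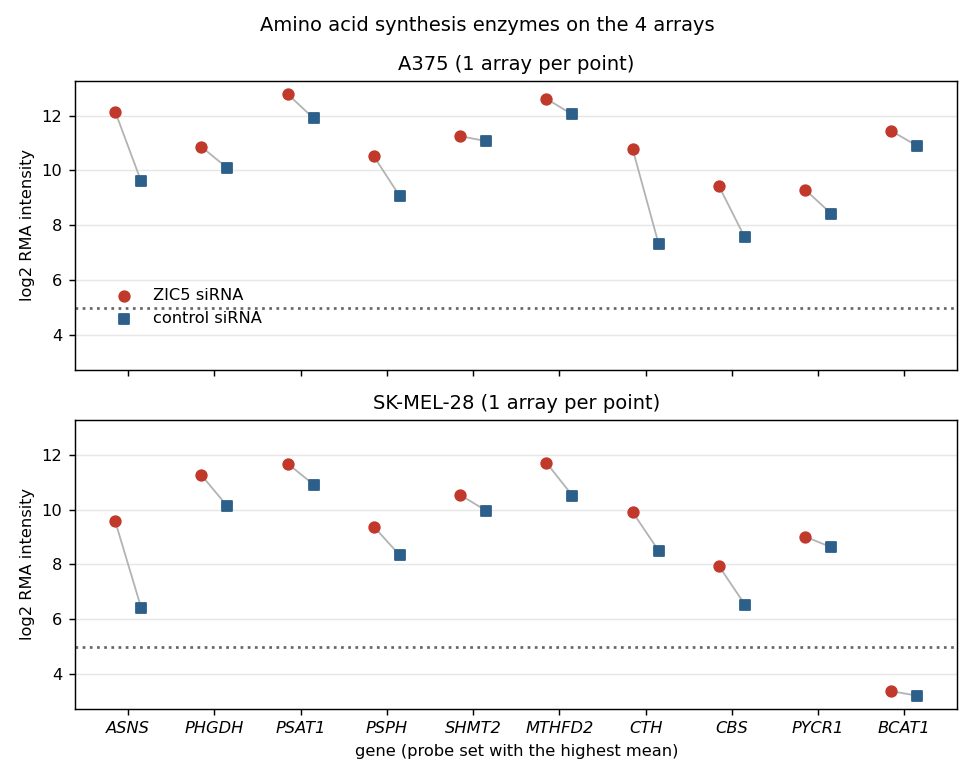
Log2 RMA intensity of the 10 enzymes (y axis) with ZIC5 siRNA (red circles) and control siRNA (blue squares) in A375 (upper panel) and SK-MEL-28 (lower panel), with 1 array behind each point and the level minimum of 5 as a dotted line. Every red circle lies above its blue square, with the widest gaps for CTH in A375 cells and ASNS in SK-MEL-28, and both BCAT1 points of SK-MEL-28 lie under the dotted line.

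ASNS, which makes asparagine from aspartate with nitrogen from glutamine, had the highest difference in SK-MEL-28 of the 13794 genes at the level minimum. Its intensity there was 760 with ZIC5 siRNA and 86.0 with control siRNA, a difference of 3.14, or 8.83-fold. In A375 the ASNS intensity was 4512 with ZIC5 siRNA and 779 with control siRNA, 5.79-fold higher, which ranked 35 among 13794 genes. The ZIC5 siRNA array of SK-MEL-28 thus read close to the control array of A375 for this probe set. A second ASNS probe set read between 6.25 and 7.19 on all 4 arrays, under the level minimum, with differences of -0.09 in A375 cells and -0.20 in SK-MEL-28.

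The upstream stretch of ASNS is shown because it holds the response element letters that were searched for. RefSeq promoter windows (GRCh38.p14, 250 bases before to 50 after a transcript start) were given for 7 of the 10 enzymes, 14 windows in all. The core TGATGNAA, where N is any base, was searched on both strands, and 3.62% of the 35116 windows of all genes held it. It was found in windows of 2 enzymes, ASNS and BCAT1. That count is of enzymes, which had up to 5 windows each, while the share is of windows. In ASNS it starts 68 bases before the transcript start (position -68), on the minus strand at chr7:97872409-97872658, with the match in capitals:
ASNS: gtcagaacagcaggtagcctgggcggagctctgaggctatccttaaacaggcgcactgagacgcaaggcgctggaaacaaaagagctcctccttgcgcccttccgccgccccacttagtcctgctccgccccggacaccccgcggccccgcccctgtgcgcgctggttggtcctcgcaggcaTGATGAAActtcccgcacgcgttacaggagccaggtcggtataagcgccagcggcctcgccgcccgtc
In BCAT1 the match starts at position -48 from one of its 5 listed starts, on the minus strand at chr12:24949131-24949160:
BCAT1: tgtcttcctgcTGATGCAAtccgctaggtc
The 250 bases before the start of CTH, the enzyme with the highest difference in A375, are shown beside them as a stretch with no match (plus strand, chr1:70411018-70411267):
CTH: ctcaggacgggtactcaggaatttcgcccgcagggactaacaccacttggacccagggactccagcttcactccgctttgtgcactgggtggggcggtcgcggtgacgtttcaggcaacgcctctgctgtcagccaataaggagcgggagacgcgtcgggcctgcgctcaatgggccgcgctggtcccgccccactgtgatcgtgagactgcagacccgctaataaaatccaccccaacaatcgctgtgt
The cyclic AMP element TGACGTCA, in 1.85% of all windows, was in no enzyme's window, and the E-box CACGTG, in 7.26% of all windows, was in a BCAT1 window, 15 bases after its start. A match is a string of letters and no evidence of binding, and a missing match says only that these letters are not in these windows.

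The 3 serine enzymes were higher with ZIC5 siRNA in both lines, between 0.77 and 1.45 in A375 cells and between 0.77 and 1.13 in SK-MEL-28. PHGDH, which takes the first and committing step from 3-phosphoglycerate, read 1859 with ZIC5 siRNA and 1092 with control siRNA in A375 cells, a difference of 0.77. In SK-MEL-28 PHGDH read 2434 with ZIC5 siRNA and 1113 with control siRNA, a difference of 1.13. The control arrays of the lines were nearly equal for PHGDH, so the SK-MEL-28 ZIC5 siRNA array was the highest of the 4. A further probe set that names PHGDH together with MZT2A and MZT2B differed by -0.23 in A375 cells and 0.01 in SK-MEL-28 and is not counted for any gene.

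PSAT1, the aminotransferase of the second step, read 7018 with ZIC5 siRNA and 3825 with control siRNA in A375 cells, a difference of 0.88. In SK-MEL-28 it read 3269 with ZIC5 siRNA and 1922 with control siRNA, a difference of 0.77. The PSAT1 differences of the lines lay 0.11 apart, the smallest gap among the 10. The other PSAT1 probe set gave 0.55 in A375 cells and 0.73 in SK-MEL-28.

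PSPH, the phosphatase that releases serine, read 1457 with ZIC5 siRNA and 534 with control siRNA in A375, 2.73-fold higher. It read 664 with ZIC5 siRNA and 322 with control siRNA in SK-MEL-28, 2.06-fold higher. A second PSPH probe set gave 1.76 in A375 cells and 1.10 in SK-MEL-28. The remaining one, under the level minimum, went the other way, with 12.5 and 9.50 on the ZIC5 siRNA arrays of A375 and SK-MEL-28 against 28.5 and 16.3 on their control arrays.

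SHMT2 and MTHFD2, mitochondrial enzymes of one-carbon metabolism, both had the greater difference in SK-MEL-28. SHMT2, which splits serine into glycine and a folate-bound carbon, read 2431 with ZIC5 siRNA and 2152 with control siRNA in A375 cells, a difference of 0.18, the smallest of the 10 in that line. In SK-MEL-28 SHMT2 read 1478 with ZIC5 siRNA and 996 with control siRNA, a difference of 0.57. Its other 2 probe sets gave 0.35 and 0.66 in A375 cells and 0.57 and 0.74 in SK-MEL-28, so its A375 value depends on the probe set.

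MTHFD2, which oxidises the folate-bound carbon in mitochondria, read 6264 with ZIC5 siRNA and 4219 with control siRNA in A375, 1.48-fold higher. It read 3322 with ZIC5 siRNA and 1459 with control siRNA in SK-MEL-28, 2.28-fold higher. The second MTHFD2 probe set had smaller differences, 0.29 in A375 cells and 0.93 in SK-MEL-28, with the same order of the lines.

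The cysteine enzymes had some of the greatest differences of the 10 in A375. CTH, which cleaves cystathionine to cysteine, read 1742 with ZIC5 siRNA and 161 with control siRNA in A375, 10.8-fold higher. That difference ranked 8 among the genes at the level minimum. In SK-MEL-28 CTH read 954 with ZIC5 siRNA and 362 with control siRNA, 2.64-fold higher and ranked 20. The second CTH probe set gave 3.13 in A375 cells and 1.41 in SK-MEL-28. The CTH differences of the lines lay 2.03 log2 units apart, the widest gap among the 10, where 6.78% of all genes had a gap of at least 1 in either direction. With 1 array per group that gap was not tested.

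CBS, which joins serine and homocysteine into cystathionine one step before CTH, read 688 with ZIC5 siRNA and 189 with control siRNA in A375, 3.64-fold higher. In SK-MEL-28 it read 246 with ZIC5 siRNA and 93.3 with control siRNA, 2.63-fold higher and ranked 21. A second CBS probe set gave 1.91 in A375 cells and 1.61 in SK-MEL-28, and a dimmer one gave 0.57 in A375 cells and 0.26 in SK-MEL-28. All 3 were higher with ZIC5 siRNA in both lines, with the smallest differences in the dimmest of them.

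PYCR1, the mitochondrial reductase of the last step to proline, read 631 with ZIC5 siRNA and 346 with control siRNA in A375 cells, a difference of 0.87. In SK-MEL-28 it read 516 with ZIC5 siRNA and 397 with control siRNA, a difference of 0.38. PYCR1 had a single probe set, and it did not pass 2-fold in either line.

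BCAT1, the cytosolic branched-chain aminotransferase, was the member in which the lines stood farthest apart. It read 2770 with ZIC5 siRNA and 1894 with control siRNA in A375 cells, a difference of 0.55, and its other 3 probe sets gave between 0.50 and 1.01 there. In SK-MEL-28 it read 10.4 with ZIC5 siRNA and 9.32 with control siRNA, near the bottom of the intensity range, and its 4 probe sets had differences between -0.43 and 0.38. With log2 values under 5 set to 5, the SK-MEL-28 difference of BCAT1 was 0, so no siRNA difference can be read for it in that line.

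Over the 23 probe sets naming a single enzyme, 21 were at the level minimum. Of these, 21 were higher with ZIC5 siRNA in A375 cells and 19 in SK-MEL-28, and the other 2 were BCAT1 probe sets. The 19 also hold BCAT1 probe sets, and every BCAT1 probe set read under the level minimum in SK-MEL-28. The share over all probe sets was not computed, so nothing is read from these counts. Probe sets of a gene share the array and its RNA, so they are no replicates. RefSeq lists pseudogenes of ASNS (5), MTHFD2 (7), PSAT1 (4) and PSPH (1) by name, and whether their transcripts reach these probe sets was not tested.

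**Figure D2:**
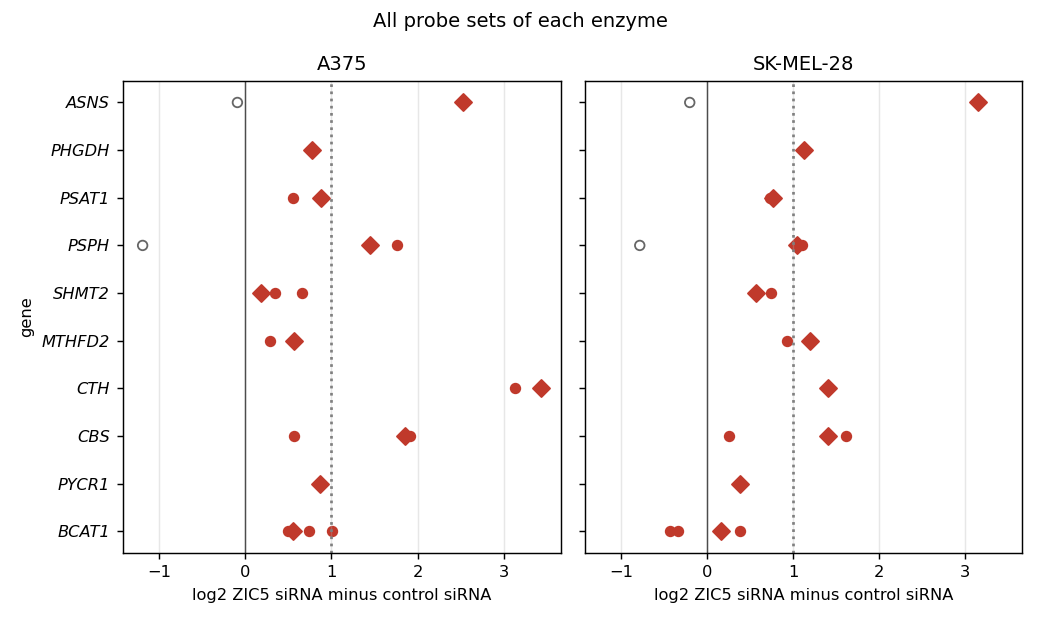
Difference in log2 intensity, ZIC5 siRNA minus control siRNA (x axis), for each probe set of the 10 enzymes (rows) in A375 (left) and SK-MEL-28 (right). Diamonds are the probe sets that stand for the gene and circles the others. Open circles had a mean over the 4 arrays under the level minimum, and the dotted line marks 1 log2 unit. Filled symbols lie right of 0 in A375, while 2 BCAT1 probe sets lie left of 0 in SK-MEL-28. Every BCAT1 probe set, although filled, read under the level minimum on the SK-MEL-28 arrays.

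The lines differed in which enzymes had the greater siRNA difference. Of the 9 enzymes that can be read in each, the A375 difference was the greater one for 5 (CTH, PYCR1, CBS, PSPH and PSAT1) and the SK-MEL-28 one for 4 (MTHFD2, ASNS, SHMT2 and PHGDH). For PSAT1 the order turned round on its other probe set. Apart from CTH, the gap was at most 0.62 log2 units in size, where the SD of that gap over all genes was 0.55. The 5 genes outside the 10 with the pair of siRNA differences nearest to that of ASNS, by Euclidean distance over the 2 lines, were the immediate early factor EGR3 (distance 1.33), AMMECR1 (1.42), the glutathione-degrading enzyme CHAC1 (1.43), ATXN1 (1.54) and the sestrin SESN3 (1.71). Each of these 5 had a smaller difference than ASNS in SK-MEL-28, at most 1.91. The 5 nearest to the median of the enzymes were HPCAL1 (0.03), MIPOL1 (0.06), AUH (0.06), DSTYK (0.07) and PPP3CA (0.07).

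**Figure D3:**
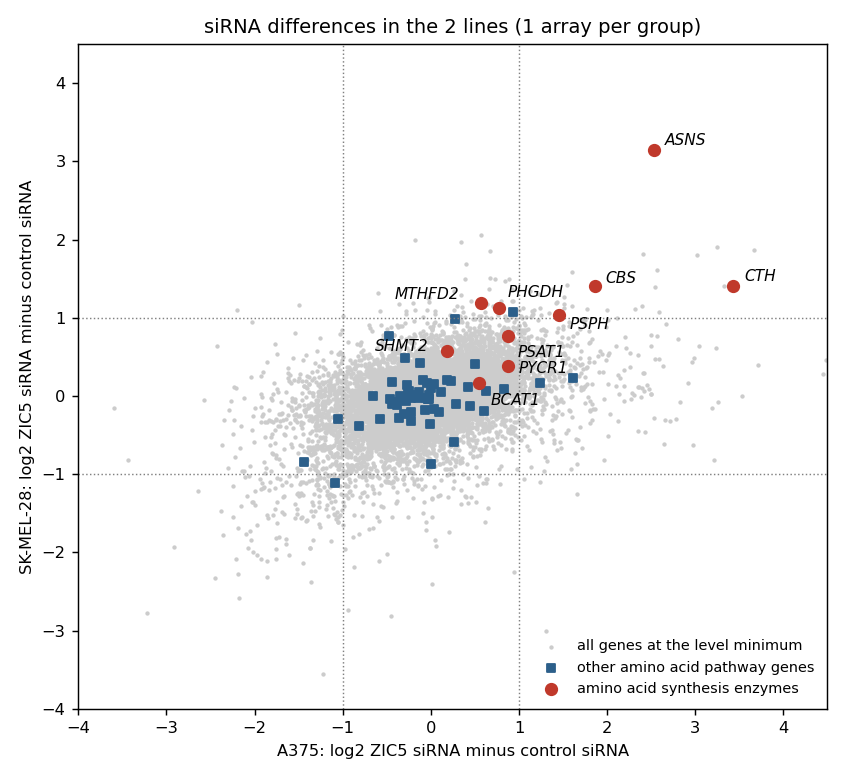
Difference in log2 intensity, ZIC5 siRNA minus control siRNA, in A375 (x axis) and SK-MEL-28 (y axis) for the 10 enzymes (red, named), other amino acid pathway genes (blue squares) and all 13794 genes at the level minimum (grey), from 1 array per group, with dotted lines at 1 and -1. All 10 red points lie in the upper right quadrant, BCAT1 with SK-MEL-28 readings under the level minimum. ASNS stands highest in SK-MEL-28 of the genes at the level minimum. A count of 2 grey genes falls outside the axes.

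ATF4 and most of the listed transcripts known to accompany it were also higher with ZIC5 siRNA than with control siRNA. ATF4 itself read 6583 with ZIC5 siRNA and 3284 with control siRNA in A375 cells, a difference of 1.0, and 5731 with ZIC5 siRNA and 2667 with control siRNA in SK-MEL-28, a difference of 1.10. Of a list of 10 such genes, 8 were at least 2-fold higher in A375 cells, where 3.89% of all genes were, and 7 in SK-MEL-28, where 0.776% were, with medians of 1.80 in A375 cells and 1.13 in SK-MEL-28. CEBPG, a C/EBP factor that pairs with ATF4, differed by 2.0 in A375 cells and 1.10 in SK-MEL-28. The pseudokinase TRIB3 differed by 1.13 in A375 cells and 1.34 in SK-MEL-28, and DDIT3, the stress factor CHOP, was 6.98-fold higher in A375 cells and 1.65-fold higher in SK-MEL-28. CEBPB was the exception in SK-MEL-28, at -0.02, with 0.51 in A375. The list was drawn up with earlier results of these arrays known, so nothing is read from its counts. A part of ATF4 in the differences of the enzymes was not tested.

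Other genes of amino acid metabolism were read from a list of 78, of which 67 were measured and 57 were at the level minimum. In A375, 2 of the 57 passed 2-fold upward and 3 downward, where 3.89% of all genes were higher and 5.05% lower. In SK-MEL-28, 1 passed 2-fold upward and 1 downward, where 0.776% of all genes were higher and 2.12% lower. The medians of the list were -0.09 in A375 cells and -0.03 in SK-MEL-28, near 0 as for all genes. In a limma fit of all 4 arrays with the line as a block, 0 of these 57 genes and 0 of all 13794 (0%) passed a Benjamini-Hochberg adjusted p of 0.05 for the siRNA effect. At an unadjusted p under 0.05 that limma fit gave 5 of the 57, and 815 higher and 1009 lower genes over the whole table. The 1 residual degree of freedom is the gap between the siRNA differences of the lines, so a response that depends on the line counts as error. A gene that misses the threshold is thus not shown to be without a difference.

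Of the pathway genes past 2-fold, 3 were among the 10 branched-chain genes of the list at the level minimum. The median difference of those 10 was -0.08 in each line. By 2-fold, 1 of them was higher and 1 lower in A375, and 1 was higher in SK-MEL-28, so no theme is read from them. PPM1K, the phosphatase that activates branched-chain keto acid breakdown, was 3.06-fold higher in A375 (423 with ZIC5 siRNA, 138 with control siRNA) and differed by 0.23 in SK-MEL-28. BCKDHB, a subunit of the dehydrogenase of that breakdown, was 2.71-fold lower in A375 (48.8 with ZIC5 siRNA, 132 with control siRNA) and differed by -0.85 in SK-MEL-28. AUH, an enzyme of leucine breakdown, was 2.10-fold higher in SK-MEL-28 (316 with ZIC5 siRNA, 150 with control siRNA) and differed by 0.93 in A375.

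GLUL, which makes glutamine, the nitrogen donor of ASNS, was lower in both lines. It read 163 with ZIC5 siRNA and 346 with control siRNA in A375 cells, a difference of -1.09, and 21.8 with ZIC5 siRNA and 46.8 with control siRNA in SK-MEL-28, a difference of -1.11. With log2 values under 5 set to 5 the SK-MEL-28 difference of GLUL was -0.55. Its limma mean difference was -1.10 (SE 0.162), with an adjusted p of 0.268.

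Among folate and methionine genes, the mitochondrial formyl-folate dehydrogenase ALDH1L2 was 2.36-fold higher in A375 cells and differed by 0.17 in SK-MEL-28. Methionine synthase, MTR, was 2.07-fold lower in A375 cells and differed by -0.29 in SK-MEL-28. Paralogues and partners of the 10 enzymes differed by less than 1 log2 unit in either direction in both lines. The cytosolic folate enzyme MTHFD1 differed by -0.29 in A375 cells and 0.48 in SK-MEL-28, and MTHFD2L, the paralogue of MTHFD2, by 0.03 in A375 cells and -0.17 in SK-MEL-28. PYCR3 differed by -0.22 in A375 cells and -0.20 in SK-MEL-28, the proline pathway enzyme ALDH18A1 by -0.46 in A375 cells and -0.04 in SK-MEL-28, and the mitochondrial aminotransferase BCAT2 by -0.01 in A375 cells and -0.36 in SK-MEL-28. SHMT1 and MTHFD1L were under the level minimum.

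**Figure D4:**
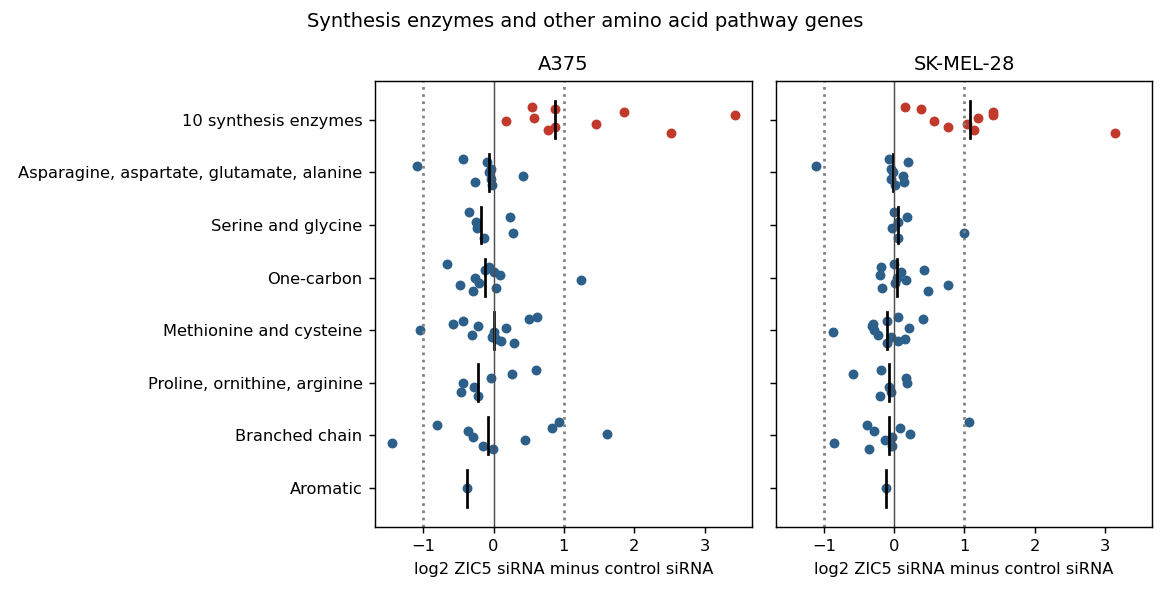
Difference in log2 intensity, ZIC5 siRNA minus control siRNA (x axis), in A375 (left) and SK-MEL-28 (right) for the 10 enzymes (red) and other amino acid pathway genes at the level minimum by group (blue). Each point is 1 gene from 1 array per group, black bars are group medians and dotted lines mark 1 and -1. The red median is 0.87 in A375 cells and 1.08 in SK-MEL-28, and the medians of the blue groups lie between -0.38 and 0.06.

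The lines were also compared at each transfection, as log2 intensity in A375 minus that in SK-MEL-28. Under control siRNA, 5 of the 10 enzymes were at least 2-fold higher in A375 (BCAT1, ASNS, MTHFD2, SHMT2 and CBS) and 1, CTH, was at least 2-fold lower, where 22.2% of all genes differed that much in either direction. Under ZIC5 siRNA, 5 were at least 2-fold higher in A375 (BCAT1, ASNS, CBS, PSPH and PSAT1) and 0 were lower, where 23.8% of all genes did in either direction. BCAT1 is in both counts, but it reached the level minimum through its A375 arrays alone. Its direction in these counts was thus in part set by that filter. In the limma fit, 3816 of 13794 genes (27.7%) passed for the line effect. The enzymes are described and not tested here, since the line difference was among the values they were listed for.

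BCAT1 had the greatest line difference of the 10 at either transfection. Its intensity was 266-fold higher in A375 than in SK-MEL-28 under ZIC5 siRNA and 203-fold higher under control siRNA. These folds rest on SK-MEL-28 values near the bottom of the intensity range, and with log2 values under 5 set to 5 the differences were 6.44 under ZIC5 siRNA and 5.89 under control siRNA. Its 4 probe sets gave between 2.86 and 8.05 under ZIC5 siRNA and between 2.02 and 7.67 under control siRNA. ASNS was 5.94-fold higher in A375 than in SK-MEL-28 under ZIC5 siRNA and 9.06-fold higher under control siRNA. With the mean over both ASNS probe sets, the dim one included, its line difference was 1.34 under ZIC5 siRNA and 1.59 under control siRNA, in place of 2.57 and 3.18. The line difference of CBS was 1.48 under ZIC5 siRNA and 1.02 under control siRNA, and it was 0.76 under control siRNA with the mean over its probe sets and 0.96 with cyclic loess, both short of 2-fold. The line difference of PSAT1 was 1.10 under ZIC5 siRNA and 0.99 under control siRNA.

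CTH changed its order between the lines. Under ZIC5 siRNA its intensity was higher in A375 (1742) than in SK-MEL-28 (954), a difference of 0.87, while under control siRNA it was lower in A375 (161) than in SK-MEL-28 (362), a difference of -1.17. The second CTH probe set gave 0.68 under ZIC5 siRNA and -1.05 under control siRNA. PHGDH and PYCR1 were close in the lines, with differences of -0.39 and 0.29 under ZIC5 siRNA and of -0.03 and -0.20 under control siRNA. Marker levels also differed between the lines: the log2 of the summed intensity of the melanocyte and melanoma markers was 11.6 and 11.2 on the A375 arrays and 15.6 and 15.7 on the SK-MEL-28 arrays, with ZIC5 siRNA before control siRNA in each. Their part in the line differences was not tested.

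**Figure D5:**
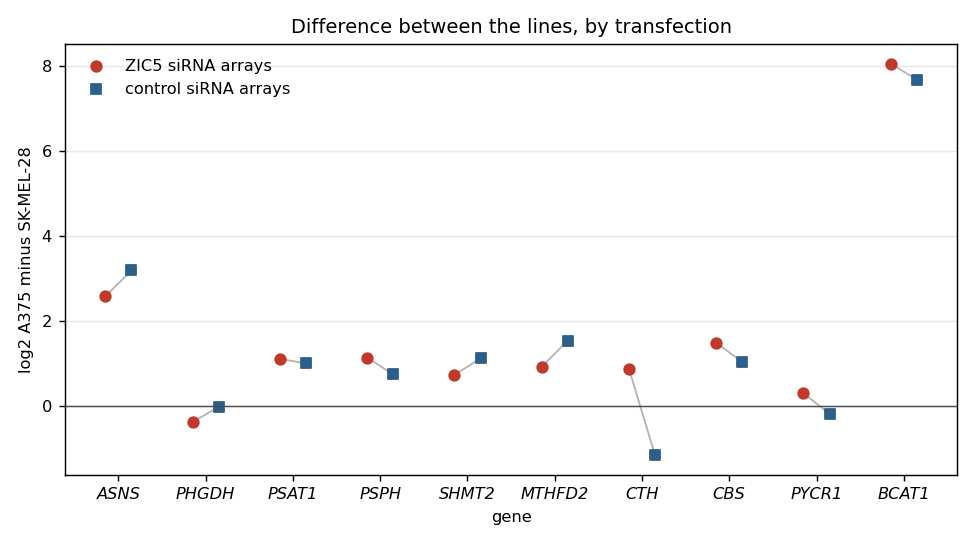
Difference in log2 intensity, A375 minus SK-MEL-28 (y axis), for the 10 enzymes on the ZIC5 siRNA arrays (red circles) and the control siRNA arrays (blue squares), 1 array per line and transfection. BCAT1 stands at 8.05 and 7.67, and the CTH points lie on opposite sides of 0, at 0.87 and -1.17.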

How the data were processed

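RNA of 4 groups was labelled as biotinylated cRNA from 100 ng of total RNA and hybridised to 1 array each, per the labels. Per the submitters' processing notes the authors used Affymetrix Expression Console and RMA, and no version is given in the sources used here. Values, which were deposited as 1 intensity per probe set and array, ran from 2.8 to 22531 on a linear scale, and log2 was taken here. With no replicate arrays, their number limits the precision. Of 54613 probe sets, 41091 named 1 gene in the platform annotation given with the data, 1801 named several and stood for no gene, and 11721 had no entry there. Entrez IDs of 41037 matched RefSeq (GRCh38.p14), including all 10 enzymes. Within a line or transfection, genes were described by a size rule of 1 log2 unit (2-fold). The siRNA and line effects over all arrays were fitted additively with limma 3.58.1 (R 4.3.3, eBayes with a trend on level) and adjusted by Benjamini-Hochberg, with 1 residual and 2.85 prior degrees of freedom. It was tested on simulated data with 200 changed genes, each changed alike in both lines. There it missed changes of 1 log2 unit. The 1 residual degree of freedom of the fit is the gap between the siRNA differences of the lines. A response that depends on the line therefore counts as error in the p-values for the siRNA effect. The labels name no separate cultures, so these p-values rest on 4 arrays alone, and part of that spread may be technical.

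The enzymes and gene lists were chosen with earlier results of these data known. Named besides the 10 enzymes were ZIC5, an ATF4 list, other pathway genes past 2-fold in either line, paralogues or partners of the enzymes, and the 5 genes nearest to ASNS and to the enzymes' median. Genes of the ATF4 list without a value in the text, and pathway genes short of 2-fold, are given by counts. Alternatives were leaving out the level filter, raising it to 7, setting values under 5 to 5, the mean over probe sets, cyclic loess, median centring and eBayes without trend.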

Additional observations from a re-analysis of the deposited data

Results flagged for a closer look

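Signs that opposed each other between the lines, or between the transfections, marked 8 named genes. The value given is the A375 siRNA difference minus the SK-MEL-28 one, which equals the line difference under ZIC5 siRNA minus that under control siRNA. With 1 array per group no such difference was tested. Among the enzymes, CTH had 2.03, with the line difference at 0.87 under ZIC5 siRNA and -1.17 under control siRNA. PYCR1 had 0.49, with line differences of 0.29 under ZIC5 siRNA and -0.20 under control siRNA. Of the ATF4 list, DDIT3 had 2.08 (line difference 1.80 under ZIC5 siRNA, -0.29 under control siRNA) and CEBPG 0.90 (0.72 under ZIC5 siRNA, -0.18 under control siRNA). CEBPB had 0.53, with siRNA differences of 0.51 in A375 cells and -0.02 in SK-MEL-28. MTHFD1 had -0.77, with siRNA differences of -0.29 in A375 cells and 0.48 in SK-MEL-28. MTHFD2L had 0.20, with 0.03 in A375 cells and -0.17 in SK-MEL-28. In A375 the MTHFD2L sign depends on the probe set, with 1 of 2 at the level minimum higher. MTR had -0.76, with line differences of -0.19 under ZIC5 siRNA and 0.57 under control siRNA.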

How the results depend on the processing

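The median and 2-fold counts of the enzymes changed little: over the alternatives run, the count of enzymes at least 2-fold higher was 3 or 4 in A375 cells and 5 or 6 in SK-MEL-28. With the mean over all probe sets of a gene, dim ones included, the SK-MEL-28 median became 0.90 (1.08 as reported), ASNS fell to 1.22 in A375 cells and 1.47 in SK-MEL-28, and PSPH to 0.67 in A375 cells and 0.45 in SK-MEL-28. BCAT1 moved with log2 values under 5 set to 5, as given above. With that mean, genes at least 2-fold higher were 340 (not 537) in A375 cells and 48 (not 107) in SK-MEL-28, and lower 442 (not 697) in A375 cells and 157 (not 292) in SK-MEL-28. A level minimum of 7, which tests fewer genes, gave 444 lower in A375, 188 lower in SK-MEL-28, and 1015 (not 1656) higher in A375 than SK-MEL-28 under ZIC5 siRNA and 902 (not 1518) under control siRNA. Among other pathway genes, the counts lower with ZIC5 siRNA became 1 (not 3) in A375 with the minimum of 7 or the mean, and 0 (not 1) in SK-MEL-28 with those or with values under 5 set to 5. The mean gave 1 (not 2) higher in A375 cells and 2 (not 4) higher in A375 than SK-MEL-28 under ZIC5 siRNA, and median centring gave 2 (not 1) higher in SK-MEL-28. The limma siRNA count was 0 under all alternatives run, with lowest adjusted p-values from 0.109 to 0.373. The limma fit has the line as a block and so pairs the arrays within a line, the labels give no replicate numbers, and leaving out an array would leave a group empty. Signals near the low end limit BCAT1 and GLUL in SK-MEL-28 and ZIC5 in both lines.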
